A study of Mus musculus with 2 samples.

Results

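C1q-high macrophages are the mammary gland cells that carried at least 10 UMIs (counts of captured transcript molecules, each told apart by its own molecular identifier) of C1qa, C1qb and C1qc together, fewer than 10 UMIs of the keratin genes Krt8, Krt18 and Krt14 together, and no UMI of the T cell genes Cd3d, Cd3e and Cd3g. They were searched among retained cells, which had at least 500 genes and at most 15% mitochondrial UMIs. Of 15632 retained cells, 96 met the rule, 40 of 6297 in Ctrl, the control library, and 56 of 9335 in CL, the library of treated mice. The members were chosen by measured values, so their levels of C1q, keratin and Cd3 genes are a description, and so is every contrast between members and the cells that were not chosen.

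The study asked what happens to mammary cells when macrophages are removed. Per the labels and the study's methods, the cells came from mammary glands of adult wild-type female mice, labelled 9 to 10 weeks old (8 to 10 weeks in the protocol), that were either controls (Ctrl) or had been injected intraperitoneally with clodronate liposomes (CL), vesicles whose drug kills phagocytes that ingest them. Sorted cells negative for CD31 and TER119 and sorted CD45+ immune cells were sequenced on the 10x Genomics platform, 1 library per group, and neither the proportion of the sorted fractions nor the number of mice per library was stated. With 1 library per group there is no replicate check, no test was made between the groups, and every 95% interval below covers counting error only.

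C1q is the recognition part of the first complement complex, built of 3 kinds of chain, and tissue macrophages are a main source of it. Macrophages of the mammary gland are usually described as ductal cells, which lie against the epithelium and express Cx3cr1 and Itgax, and stromal cells, which express Lyve1, Mrc1 and Folr2. Both present antigen on MHC class II and clear dying cells, and macrophages that take up much debris often make matrix metalloproteinases. Monocytes, which enter tissue from the blood and can become macrophages, carry Ly6c2, Plac8 and Ccr2.

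The 3 C1q genes lie next to each other on the minus strand of chromosome 4 (GRCm38, GENCODE annotation), C1qb at chr4:136880129-136886187, C1qc at chr4:136889804-136893065 and C1qa at chr4:136895917-136898803. The bases just upstream of the members' defining genes are shown because these genes were counted together in every member. A RefSeq promoter was found for 2 of the 3 genes on GRCm38.p6, C1qb and C1qc. Capitals mark matches to GAGGAA, the core bound by PU.1, the macrophage transcription factor encoded by Spi1, searched on both strands (TTCCTC on the other). The windows are chr4:136886201-136886450 for C1qb, of 250 bases, and chr4:136893066-136893164 for C1qc, of 99 bases, both read 5′ to 3′ on the minus strand.
C1qb: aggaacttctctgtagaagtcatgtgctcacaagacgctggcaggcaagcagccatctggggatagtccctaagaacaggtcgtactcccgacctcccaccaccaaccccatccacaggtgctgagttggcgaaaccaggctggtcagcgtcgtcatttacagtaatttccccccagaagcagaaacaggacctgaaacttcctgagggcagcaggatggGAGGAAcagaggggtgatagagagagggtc
C1qc: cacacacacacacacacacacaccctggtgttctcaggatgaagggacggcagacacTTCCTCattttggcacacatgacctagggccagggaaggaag
The C1qb match starts at position 221 of its window, and 24 bases lie between its end and the RefSeq start. The C1qc match, on the opposite strand, starts at position 58 and belongs to the longer motif GAGGAAGT (ACTTCCTC on the other strand). Between its end and the RefSeq start lie 187 bases, of which the 151 nearest the start were left out of the window shown. GAGGAA or its reverse was present in 23.25% of 32851 RefSeq promoter windows of 250 bases, and GAGGAAGT in 2.441%, so such a match is a description of the sequence and not a binding site. Spi1 itself was present in 35 of 40 Ctrl members, at 499 CPM (counts scaled to a common total over the UMIs of all members of a library), and in 52 of 56 CL members, at 430 CPM.

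Members made up 0.635% of retained cells in the library labelled Ctrl (95% Clopper-Pearson interval 0.454 to 0.864%) and 0.600% in the library labelled CL (0.453 to 0.778%). The log2 ratio of the shares, CL over Ctrl, was -0.08, and its interval ran from -0.69 to 0.54, so a difference in share was not detectable at this number of cells. Since the proportion of sorted CD45+ cells in each library was not stated, and that proportion can set this share, the share does not measure how many macrophages the glands held. Of the retained cells with at least 10 C1q UMIs, 42 in Ctrl and 70 in CL, the keratin limit removed 2 and 12 and the Cd3 limit 0 and 2. In the library labelled CL, 16 of the 56 members belonged to a group with monocyte transcripts described below. Without all members carrying at least 10 UMIs of the monocyte gene list, 39 cells remained in Ctrl and 38 in CL, and the log2 ratio was -0.61, with an interval from -1.29 to 0.08.

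The libraries held 118743318 (Ctrl) and 155765480 (CL) UMIs. Members held 322516 UMIs in Ctrl and 566856 in CL. A Ctrl member had 1422 to 16591 UMIs with a median of 7974, and a CL member 1408 to 33456 with a median of 10043, against medians of 11957 and 10866 in the retained cells that were not members. Mitochondrial UMIs made up a median of 2.92% and 3.01%. Although 22 matrix barcodes were candidate cells in both libraries, 0 of them were members.

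Few Ctrl cells lay near the threshold, but in CL it fell among cells of low C1q count and not in a gap. At 10 to 19 C1q UMIs lay 5 Ctrl and 11 CL members. C1q UMIs per member ran from 12 to 262 in Ctrl with a median of 75.5, and from 10 to 331 in CL with a median of 70.5, while 96.2% of Ctrl and 95.3% of CL retained cells had no C1q UMI. Just inside the limit, at 10 to 14 C1q UMIs, lay 3 Ctrl and 6 CL members. Just outside it, at 5 to 9 UMIs, lay 2 Ctrl and 14 CL cells. Of those 14 CL cells, 14 had Lyz2, 11 had Csf1r and 8 had at least 10 UMIs of the monocyte list, while 2 had Ms4a7.

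**Figure D1:**
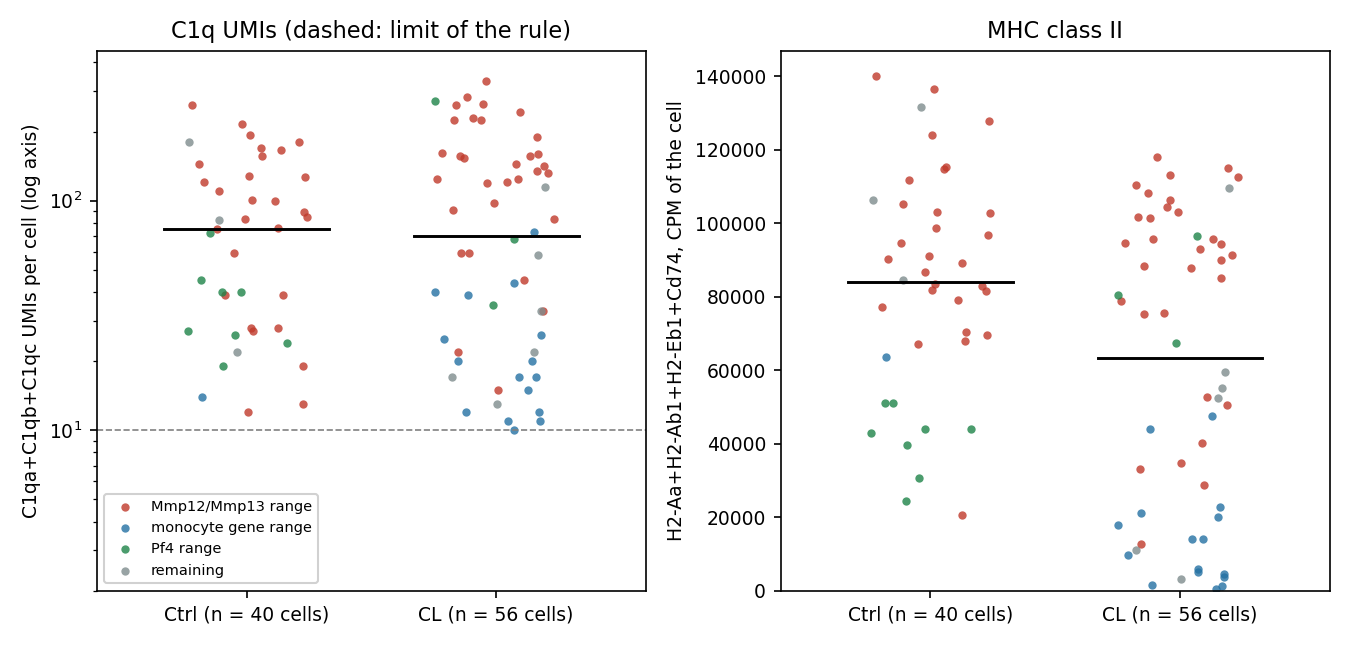
Each point is 1 member, placed by library on the x axis, with C1qa, C1qb and C1qc UMIs per cell on a log axis (left) and the summed MHC class II genes H2-Aa, H2-Ab1, H2-Eb1 and Cd74 in CPM of the cell (right). Black lines are medians over cells (75.5 and 70.5 C1q UMIs, 84059 and 63424 CPM), colours are the ranges of members defined in the text, and the 16 CL members of the monocyte gene range have 10 to 73 C1q UMIs.

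In most members the macrophage label was borne out by genes that the rule did not use. Csf1r, the receptor for the macrophage growth factor CSF1, had 0 to 11 UMIs per Ctrl member with a median of 4, and 0 to 13 per CL member with a median of 3. It was present in 35 of 40 Ctrl and 50 of 56 CL members. Adgre1, which encodes F4/80, was present in 32 and 50 members, with medians of 3 and 2 UMIs and highest values of 8 and 14. Most members of both libraries thus had transcripts of both receptors, and the per-cell values overlapped. Ms4a7, a membrane protein of tissue macrophages, was present in 36 of 40 and 41 of 56 members, with medians of 5 and 4.5 UMIs and highest values of 30 and 29. Mrc1, the mannose receptor, had a median of 0 in both libraries and was present in 17 Ctrl members (up to 12 UMIs) and 11 CL members (up to 9). The label therefore rests on Csf1r, Adgre1 and Ms4a7 rather than on Mrc1. In the 16 CL members with monocyte transcripts described below, Ms4a7 was present in 3, so there the label rests on fewer markers. Csf1r and Adgre1 were also present in 11 and 8 of the 14 CL cells with 5 to 9 C1q UMIs, which were not members.

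Empty droplets held little of these transcripts. In empty droplets, barcodes of 100 to 300 UMIs, the 7 markers summed to 48.4 (Ctrl) and 67.8 CPM (CL), against 12595 and 11296 CPM in members. Most of the members' sum came from the C1q genes, which the rule fixed. C1qa, C1qb and C1qc stood at 3848, 4121 and 2698 CPM in Ctrl and at 3583, 3909 and 2404 CPM in CL. This sum and the C1qa shares that follow are therefore a description. Ms4a7, which the rule did not use, stood at 1.90 and 2.16 CPM in empty droplets and at 893 and 702 CPM in members. After thinning every cell to 4619 UMIs, C1qa was found in 100% of 36 Ctrl members and 93.9% of 49 CL members (4 and 7 shallower members were left out). Unthinned, the shares were 100% and 96.4%. In cells with at least 10 keratin UMIs, which should lack C1q, the thinned shares were 0.283% and 0.555%. All 16 genes of the macrophage identity list (among them Tyrobp and Fcer1g, adaptors of activating receptors, and Cd68, a lysosomal glycoprotein) had UMIs in both libraries.

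Genes at least 10 times higher in members than in all other retained cells, in both libraries, numbered 256 of 2026 genes with at least 20 UMIs in members of each library (12.6%). This contrast repeats the choice of the cells. By the smaller of both ratios, the leading genes outside C1q were Pf4, a platelet-type chemokine that macrophages also make, Mmp13 and Mmp12, secreted proteases of collagen and elastin, Ms4a7, H2-M2, a non-classical MHC class I gene, and Dcstamp, a cell fusion protein. Pf4 was 3859 times higher than in other cells in Ctrl and 1019 times in CL. In CL it was present in 14 members only, and 86 of its 173 UMIs lay in 1 cell. Mmp12 was 2076 and 552 times higher, and Mmp13 2631 and 809 times. C3ar1, the receptor for complement fragment C3a, Dnase1l3, a DNase of phagocytes, Fcgr4, an Fc receptor, and Il1a, an alarm cytokine, were also among the leading 15. Most of the other cells, 5595 in Ctrl and 7885 in CL, had at least 10 keratin UMIs. Against the Lyz2-high C1q-low cells described below, 8 in Ctrl and 119 in CL, these ratios were smaller. Il1a stood at 220 against 106 CPM in Ctrl and at 91.7 against 9.78 CPM in CL. Fcgr4 stood at 164 against 35.5 and 288 against 81.1 CPM, and Pf4 at 729 against 213 and 305 against 6.84 CPM.

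Markers of most other cell types were low in members, apart from monocyte genes, some dendritic cell and T cell genes, and haemoglobin in 1 CL member. Endothelial markers were at 0 (Ctrl) and 3.53 CPM (CL), mast cell markers at 0 and 1.76 CPM, and mural markers at 3.10 and 0 CPM. Fibroblast markers reached 37.2 and 7.06 CPM, against 620 and 313 CPM in empty droplets. Keratins and other epithelial markers reached 760 and 688 CPM, far under the 16851 and 17533 CPM of empty droplets. The rule limited Krt8, Krt18 and Krt14 of that list and the Cd3 genes of the T and NK list. The levels of both lists are thus fixed in part by the choice of cells. Neutrophil markers were at 46.5 and 28.2 CPM, against 5.62 and 73.0 CPM in empty droplets. Dendritic cell markers were at 189 and 157 CPM, above the 18.8 and 15.7 CPM of empty droplets. Of that list Mgl2 had 42 Ctrl and 20 CL UMIs and Ccr7 2 and 56, while Flt3 and Zbtb46 had 0 in both libraries. T and NK markers reached 347 and 224 CPM, against 131 and 235 CPM in empty droplets, of which Il7r, the interleukin 7 receptor, made up 110 of the Ctrl and 123 of the CL UMIs. Il7r stood at 2.18 and 4.23 CPM in empty droplets and at 341 and 217 CPM in members.

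**Figure D2:**
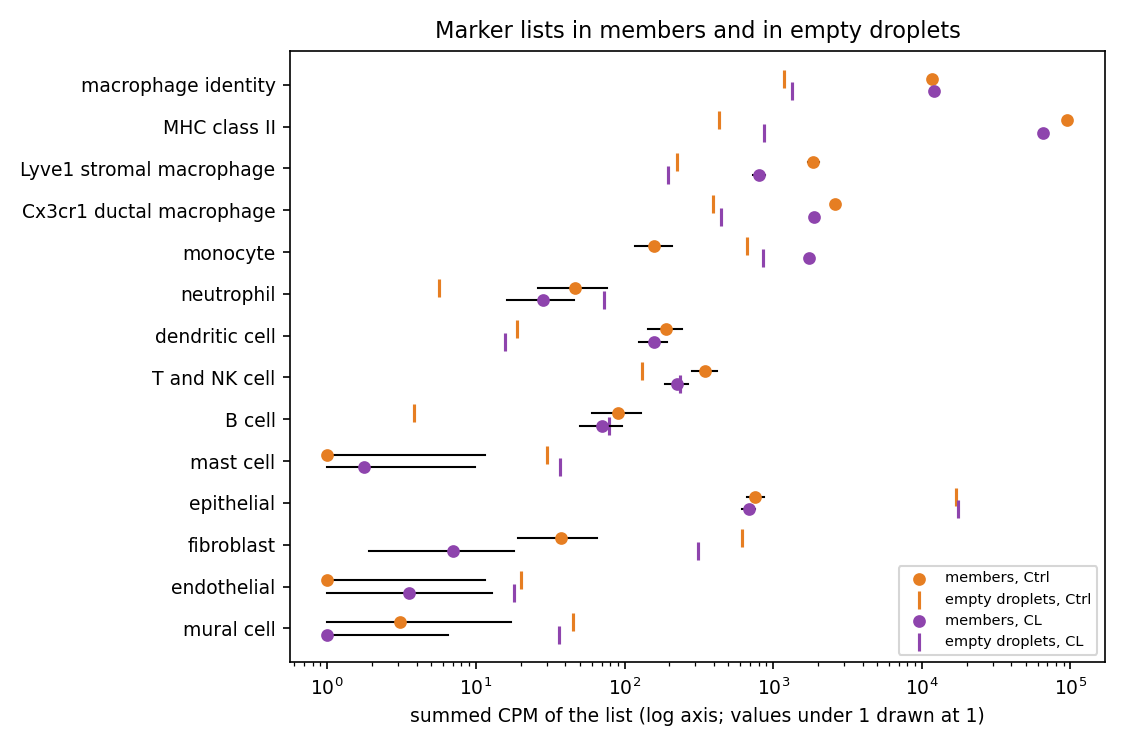
Summed level of 14 marker lists (y axis) in CPM on a log x axis, as points with 95% Poisson intervals for members and vertical ticks for empty droplets, orange for Ctrl and purple for CL; values under 1 are drawn at 1. Macrophage and MHC class II lists lie far to the right of the empty droplets in both libraries, epithelial and fibroblast lists lie to the left of theirs, and the monocyte list lies at 158 CPM in Ctrl and 1739 CPM in CL. The keratin limit of the rule fixes the epithelial level of members in part.

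The members were not uniform. As ranges cut from counts after their values were seen, they fell into members with at least 5 UMIs of Mmp12 and Mmp13, other members with at least 10 UMIs of the monocyte list (10 genes, among them Ly6c2, Ccr2, Plac8, Chil3 and Ms4a4c), other members with at least 5 UMIs of Pf4, and the remaining ones. These are ranges and not cell types. The Mmp12/Mmp13 range held 28 of 40 Ctrl members (70.0%, interval 53.5 to 83.4%) and 31 of 56 CL members (55.4%, 41.5 to 68.7%). The monocyte gene range held 1 Ctrl member (2.50%, 0.0633 to 13.2%) and 16 CL members (28.6%, 17.3 to 42.2%). Since the limit was chosen with these values known and the intervals cover only the counting of cells, they give no test between the groups. The Pf4 range held 8 Ctrl (20%, 9.05 to 35.6%) and 3 CL members (5.36%, 1.12 to 14.9%), and 3 and 6 members remained.

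Few members lay near the limits. Between 3 and 7 Mmp12 and Mmp13 UMIs lay 1 Ctrl and 4 CL members, and between 8 and 12 monocyte-list UMIs lay 0 and 3. At least 10 monocyte-list UMIs together with at least 5 Mmp12 and Mmp13 UMIs were found in 0 Ctrl and 2 CL members, and 11 Ctrl and 24 CL members had no Mmp12 or Mmp13 UMI at all. Between 3 and 7 Pf4 UMIs lay 5 Ctrl members and 1 CL member.

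**Figure D3:**
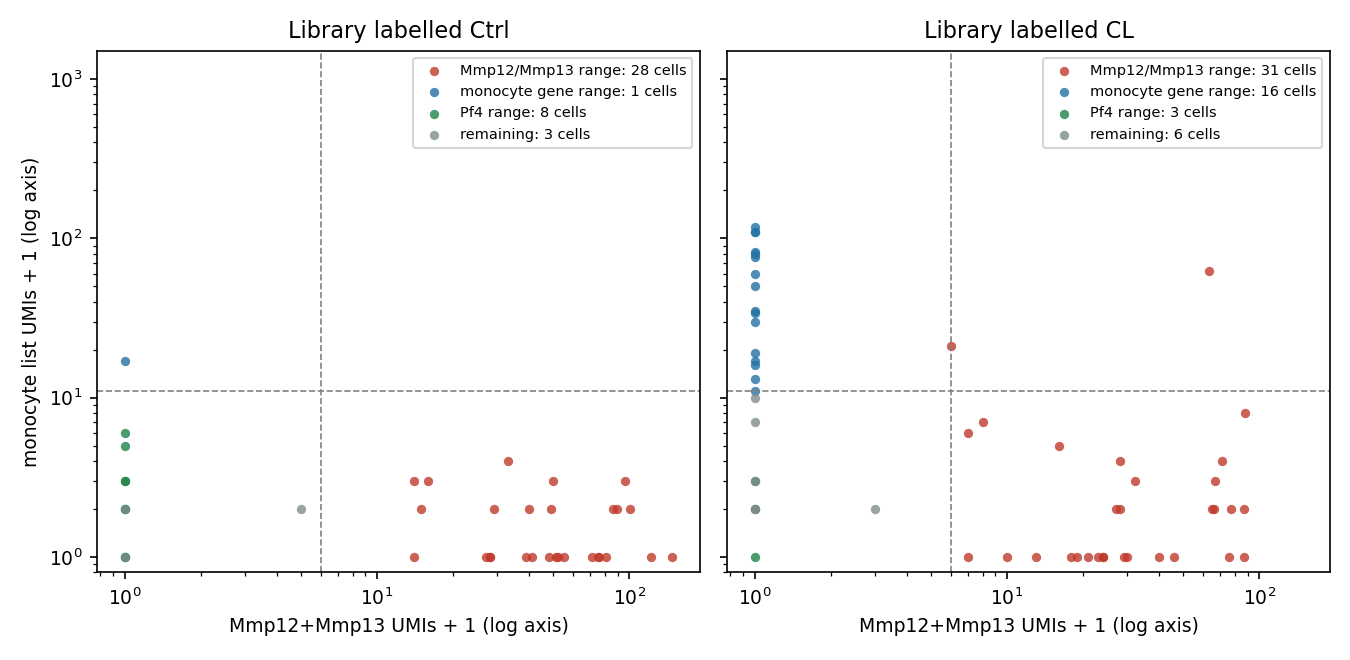
Each point is 1 member, with Mmp12 and Mmp13 UMIs + 1 on the x axis and monocyte-list UMIs + 1 on the y axis, both log axes, for the library labelled Ctrl (left) and CL (right); dashed lines are the limits of 5 and 10 UMIs. The upper left corner holds 1 Ctrl and 16 CL members, and the 2 CL members past both limits were counted in the Mmp12/Mmp13 range.

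**Figure D4:**
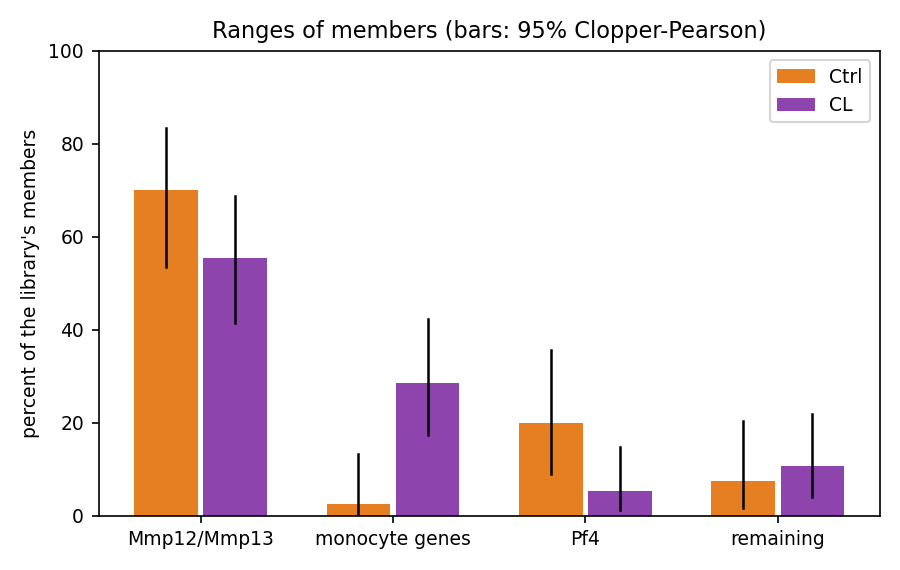
Percent of each library's members (y axis) in the 4 ranges (x axis), orange for Ctrl and purple for CL, with 95% Clopper-Pearson intervals as black lines. The monocyte gene range is 2.50% of Ctrl and 28.6% of CL members, and the intervals of the other ranges overlap. The ranges were chosen after the values were seen and the intervals cover only the counting of cells, so they give no test between the groups.

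Mmp12 and Mmp13 marked the largest range in both libraries. Together they had 0 to 147 UMIs per Ctrl member with a median of 30, and 0 to 87 per CL member with a median of 6.5. They were present in 29 of 40 and 32 of 56 members. The 2 genes are neighbours on chromosome 9 (GRCm38), Mmp13 at chr9:7272514-7283331 and Mmp12 at chr9:7344381-7369499, both on the plus strand. Members of this range had medians of 94.5 C1q UMIs in Ctrl and 142 in CL. The MHC class II list stood at 104284 and 86185 CPM in them. Itgax, which encodes CD11c, was present in 23 of 28 and 27 of 31 of them, with medians of 3 and 2 UMIs. Ly6c2 had 0 UMIs in this range in both libraries, and so did Lyve1, Folr2 and Cd163.

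The monocyte gene range of the library labelled CL was cut from monocyte-list, Mmp12 and Mmp13 UMIs, so its levels of those genes follow largely from the cut. Its 16 members had 10 to 73 C1q UMIs with a median of 18.5. Lyz2, lysozyme, had 23 to 331 UMIs per cell with a median of 80.5 and was present in 16 of 16. S100a4, a calcium-binding protein of motile cells, had 6 to 81 UMIs with a median of 27, also in 16 of 16. Every member of the range thus had lysozyme and S100a4 transcripts. Ly6c2 was present in 14 of 16 with up to 35 UMIs, and Ccr2, the receptor by which monocytes are recruited, in 12 of 16 with up to 10. Csf1r and Adgre1 were present in 15 and 14 of 16, but Ms4a7 in 3 of 16, with 6 UMIs in all, against 31 of 31 CL members of the Mmp12/Mmp13 range. The macrophage label thus rests on fewer markers in these 16 cells. C1qb had a median of 11 UMIs, C1qa of 3 and C1qc of 4.5. Mmp12, Mmp13 and Itgax had no UMI, and the MHC class II list stood at 15448 CPM. Hmox1, which degrades haem, stood at 5557 CPM, and Ifitm3, an interferon-induced membrane protein, at 4016 CPM.

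Cells that had at least 10 Lyz2 UMIs but fewer than 10 C1q UMIs, under the same keratin and Cd3 limits, numbered 8 in Ctrl and 119 in CL. S100a4, which neither cut used, stood at 2841 CPM in those CL cells and at 3613 CPM in the 16 members. The neutrophil list stood at 7553 CPM in those CL cells but at 63.9 CPM in the 16 members, so both sets of cells differed in it. The monocyte list, whose level in the 16 members was fixed by the cut, stood at 7073 CPM in those CL cells, at 5397 CPM in the 16 members and at 331 CPM in the CL members of the Mmp12/Mmp13 range, or 178 CPM without the deepest of these, which held 61 of their 119 UMIs. Plac8, a gene of that list, stood at 3736 CPM in the Lyz2-high C1q-low cells of CL and at 3485 CPM in the 16 members. C1qb stood at 70.4 CPM in the former and at 1381 CPM in the latter, a contrast that the C1q limit fixed.

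Mrc1, which no cut used, had 42 of its 55 Ctrl UMIs in the Pf4 range, whereas in CL 21 of 31 lay in the monocyte gene range and 4 in the Pf4 range. Pf4 is itself a gene of the stromal list, so the level of that list in the range follows in part from the cut. Its 8 Ctrl members had 19 to 72 C1q UMIs with a median of 33.5, and 6 to 53 Pf4 UMIs with a median of 21.5. Mrc1 was present in 8 of 8 with a median of 4 UMIs, F13a1, a transglutaminase of resident macrophages, in 7 of 8 and Igf1, a growth factor, in 5 of 8. Ccl7, a chemokine for monocytes, was present in 7 of 8 with a median of 12.5 UMIs, and Ccl2, another, in 7 of 8 with a median of 5.5. Ccl8, also of that family, had 109 UMIs in 2 of the 8. The MHC class II list stood at 43087 CPM, and Itgax had no UMI. Of the 3 CL members in the range, Pf4 had 5, 58 and 86 UMIs, and their MHC class II list stood at 86845 CPM. Lyve1 itself had 1 UMI in all Ctrl members and 0 in CL members, Folr2 had 9 and 0, Cd163 5 and 0 and Timd4 1 and 1, so these stromal genes were at or near 0 while Mrc1, with 55 and 31 UMIs, was not.

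Sorted by at least 2 UMIs of Lyve1, Mrc1, Folr2 and Cd163 together, 10 of 40 Ctrl members (25.0%, interval 12.7 to 41.2%) and 5 of 56 CL members (8.93%, 2.96 to 19.6%) lay on the stromal side. Of the 5 CL members, 3 belonged to the monocyte gene range. By at least 2 UMIs of Cx3cr1 and Itgax, 21 Ctrl (52.5%) and 24 CL members (42.9%) lay on the ductal side. Both limits were passed by 2 Ctrl members and 1 CL member, and neither by 11 and 28. The intervals of the stromal share overlapped, also after thinning, when 19.4% of 36 and 8.16% of 49 members lay on that side. Cx3cr1 itself had 10 and 9 UMIs, so the ductal side was set mainly by Itgax.

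To describe how members differed between the libraries, UMIs were summed over the members of each library, and 3244 genes with at least 20 UMIs in the library with the higher CPM were compared. Of these, 355 (10.9%) were at least 2-fold higher in CL and 115 (3.55%) at least 2-fold lower, and the median log2 ratio, CL over Ctrl, was 0.24. The minimum favoured genes higher in CL, whose members held more UMIs. With a minimum on the mean CPM of both libraries instead (62.0 CPM, that of 20 Ctrl UMIs), 115 genes (5.43%) were at least 2-fold higher and 82 (3.87%) lower of 2117, 58.4% of calls were higher and the median was 0.09. Under that minimum, the cytokine list had 8 genes lower and 1 higher of 13, the chemokine list 5 and 0 of 13, the immediate early list 10 and 0 of 15, the stromal list 3 and 0 of 4, the complement list 0 and 1 of 8 and the lipid and iron list 0 and 1 of 11. Without the members carrying at least 10 monocyte-list UMIs, 106 genes were at least 2-fold higher and 98 lower of 2503 compared. Within the Mmp12/Mmp13 range alone the counts were 176 and 72 of 2299. Of the genes past 2-fold, 75.5% were higher in CL over all members, 52.0% without the monocyte-list members and 71.0% within the Mmp12/Mmp13 range, which holds no cell of the monocyte gene range but 2 of the monocyte-list members. The number and the direction of calls thus moved with the minimum and with the cells included, and values within the Mmp12/Mmp13 range are given below for the main lists and for a number of genes.

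The C1q genes, which chose the members, are given as a description. C1qa had 1241 UMIs in Ctrl (3848 CPM) and 2031 in CL (3583 CPM), a log2 ratio of -0.10 with an interval from -0.21 to 0.00. The ratios of C1qb (-0.08) and C1qc (-0.17) were of similar size. Within the Mmp12/Mmp13 range the 3 ratios were 0.17, 0.16 and 0.14, so their sign changed with the cells included. The 7 marker genes together had a log2 ratio of -0.16 over all members, which turned to 0.10 within the range. The macrophage identity list stood at 11624 and 12003 CPM, a log2 ratio of 0.05 (interval -0.01 to 0.10) that became -0.04 with TMM scaling, -0.01 with the most abundant genes left out of the total and -0.02 within the range. Of its 14 compared genes, 1 was at least 2-fold higher in CL and 0 lower, against 10.9% and 3.55% of all compared genes. That gene was Itgam, the CD11b integrin chain, with 9 UMIs in 4 Ctrl members and 57 in 20 CL members.

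Among other complement genes, C5ar1, the receptor for fragment C5a, had 84 and 82 UMIs and a log2 ratio of -0.85, and C3ar1 had 88 and 95 UMIs and a ratio of -0.70. These ratios were -0.79 and -0.27 within the Mmp12/Mmp13 range. Cfp, properdin, which stabilises the alternative pathway convertase, was higher in CL with 9 and 39 UMIs (1.30, interval 0.23 to 2.53), and so was the endocytic receptor Lrp1 with 15 and 55 UMIs (1.06, 0.22 to 1.99). Within the range Cfp had 1 and 13 UMIs (3.17, 0.44 to 8.58) and Lrp1 7 and 20 (0.99, -0.31 to 2.47). Of the 9 compared genes of the complement list, 2 were at least 2-fold higher and 0 lower, against 10.9% higher and 3.55% lower of all compared genes, with a median of -0.10 beside 0.24. Vsig4, a complement receptor of resident macrophages, had 0 UMIs in both libraries.

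CL members had a lower summed level of MHC class II genes, by much less without the members with monocyte transcripts. H2-Aa, H2-Ab1, H2-Eb1 and Cd74 together ran from 20639 to 139962 CPM per Ctrl member with a median of 84059, and from 354 to 118097 CPM per CL member with a median of 63424. The cells of both libraries overlapped over most of this range, and the lowest values lay in CL. The list of 12 genes stood at 94752 and 65091 CPM, a log2 ratio of -0.54 (interval -0.56 to -0.52). It was -0.28 within the Mmp12/Mmp13 range and -0.07 without the members with at least 10 monocyte-list UMIs. Of its 9 compared genes 0 reached 2-fold in either direction, against 10.9% higher and 3.55% lower of all compared genes, and their median was -0.42 beside 0.24. Cd74, the invariant chain, had a log2 ratio of -0.67, H2-Ab1 of -0.52 and H2-Aa of -0.42, against -0.39 for Cd74 and -0.12 for H2-Aa within the range. Ctss, the protease that degrades the invariant chain, had a ratio of -0.16 over all members and Cd86, a costimulatory ligand, of -0.66.

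Il1b had a lower summed level in CL members, within the Mmp12/Mmp13 range as well. Il1b, the gene of interleukin 1 beta (chr2:129364570-129371139, GRCm38, minus strand), had 0 to 113 UMIs per Ctrl member with a median of 9, and 0 to 91 per CL member with a median of 1. It was present in 31 of 40 and 33 of 56 members, and the 3 highest values were 113, 97 and 94 UMIs in Ctrl and 91, 43 and 24 in CL. In sum it had 704 UMIs (2183 CPM) in Ctrl and 340 (600 CPM) in CL, a log2 ratio of -1.86 (interval -2.05 to -1.67). Within the Mmp12/Mmp13 range its ratio was -1.41 (-1.61 to -1.21), with medians of 11 and 4 UMIs. After thinning, 75.0% of Ctrl and 46.9% of CL members had an Il1b UMI, against 0.226% and 0.366% of keratin cells.

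Tnf, the cytokine whose signalling the study examined, lies at chr17:35199381-35202007 (GRCm38, minus strand). It had 0 to 42 UMIs per Ctrl member and 0 to 26 per CL member, with a median of 0 in both, and was present in 16 of 40 and 22 of 56. A single cell held 39.6% of the Tnf UMIs in Ctrl and 39.4% in CL. In sum it had 106 UMIs (329 CPM) and 66 (116 CPM), a log2 ratio of -1.50 (-1.96 to -1.04), and within the Mmp12/Mmp13 range 80 and 51 UMIs and a ratio of -1.18 (-1.71 to -0.65). The share of members with a Tnf UMI was 40.0% and 39.3% before thinning and 38.9% and 26.5% after it. Keratin cells reached thinned shares of 13.7% and 15.3%, so single Tnf UMIs were found outside these cells as well. Of its receptor genes, Tnfrsf1b had 65 and 107 UMIs (log2 ratio -0.09, interval -0.55 to 0.37), but 56 and 49 within the Mmp12/Mmp13 range (-0.72, -1.30 to -0.14). Tnfrsf1a had 28 and 42 UMIs (-0.23, -0.95 to 0.52), and 13 and 26 within the range (0.47, -0.54 to 1.55). Tnfaip3, an NF-kB target that restrains the pathway, had a ratio of -0.91 and Nfkbia, the NF-kB inhibitor, of -0.73. Of the 12 genes of the TNF and NF-kB list, 1, Tnf, was at least 2-fold lower and 0 higher, against 3.55% lower and 10.9% higher of all compared genes, with a median of -0.42.

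The cytokine and growth factor list stood at 9928 CPM in Ctrl and 4303 CPM in CL, a log2 ratio of -1.21 (-1.28 to -1.13), and at -1.02 within the Mmp12/Mmp13 range. Of its 15 compared genes, 10 were at least 2-fold lower and 1 at least 2-fold higher, against 3.55% and 10.9% of all compared genes, with a median of -1.26. Il10, an anti-inflammatory cytokine, was among the 10, with 61 and 34 UMIs (-1.66), and so were Il1a (-1.26), Nlrp3, the inflammasome sensor (-1.26), and Ptgs2, which makes prostaglandins (-1.32). Il10 (-1.58) and Il1a (-1.17) stayed past 2-fold within the Mmp12/Mmp13 range, while Nlrp3 (-0.93) and Ptgs2 (-0.91) did not. Lower genes therefore included pro- and anti-inflammatory ones. Mmp12 had 1194 and 776 UMIs and a ratio of -1.44 (-1.57 to -1.30), which was -1.15 within the range that it defines in part. Mmp13, which the list did not hold, had 356 and 398 UMIs and a ratio of -0.65. Hbegf, a ligand of the EGF receptor, had 23 UMIs in Ctrl and 3 in CL, under the level of empty droplets in both. Spp1, osteopontin, was the gene at least 2-fold higher, with 32 and 146 UMIs (1.38, interval 0.82 to 1.98). Of its CL UMIs 95 lay in the monocyte gene range, 49 of them in 1 cell, and within the Mmp12/Mmp13 range it had 22 and 46 UMIs and stayed under 2-fold (0.54, -0.23 to 1.34). Il12b, a subunit of interleukin 12, had 0 UMIs in Ctrl and 18 in 5 CL members, at least 3.41-fold higher when 3 UMIs are taken as the limit of a count of 0, and all 18 lay in the Mmp12/Mmp13 range.

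Several chemokine genes were lower in CL. Ccl4 had 1411 and 922 UMIs and a log2 ratio of -1.43, and 671 and 378 of these lay in 1 cell of each library. Without those cells the ratio was -1.26, and within the Mmp12/Mmp13 range it was -0.98, under 2-fold. Ccl3, a related attractant of immune cells, had 417 and 191 UMIs (-1.94), with 157 and 65 in 1 cell, and its ratio was -1.86 without those cells and -1.65 within the range. Cxcl2, an attractant of neutrophils, was present in 38 of 40 and 49 of 56 members and had a ratio of -0.70, which was 0.06 (interval -0.03 to 0.15) within the Mmp12/Mmp13 range. Its direction thus depended on the cells included. Cxcl3, a close relative, had 295 and 99 UMIs (-2.39), and its ratio was -2.55 without its highest cell in each library. The monocyte attractants Ccl7 (-1.99) and Ccl2 (-1.06) lay mainly in the Pf4 range of Ctrl, with 116 of 124 and 142 of 148 UMIs there. In CL, 46 of 55 Ccl7 and 109 of 125 Ccl2 UMIs lay in the monocyte gene range instead. The 55 Ccl7 UMIs came from 4 CL members, and 34 of them from 1 cell. Ccl8 had 109 UMIs in Ctrl and 0 in CL. Cxcl9, an interferon gamma-induced attractant of T cells, had 0 and 30 UMIs, at least 5.69-fold higher in CL. Of 16 compared genes in the list, 5 were at least 2-fold lower and 1 higher, against 10.9% higher and 3.55% lower of all compared genes, with a median of -0.71 beside 0.24.

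**Figure D5:**
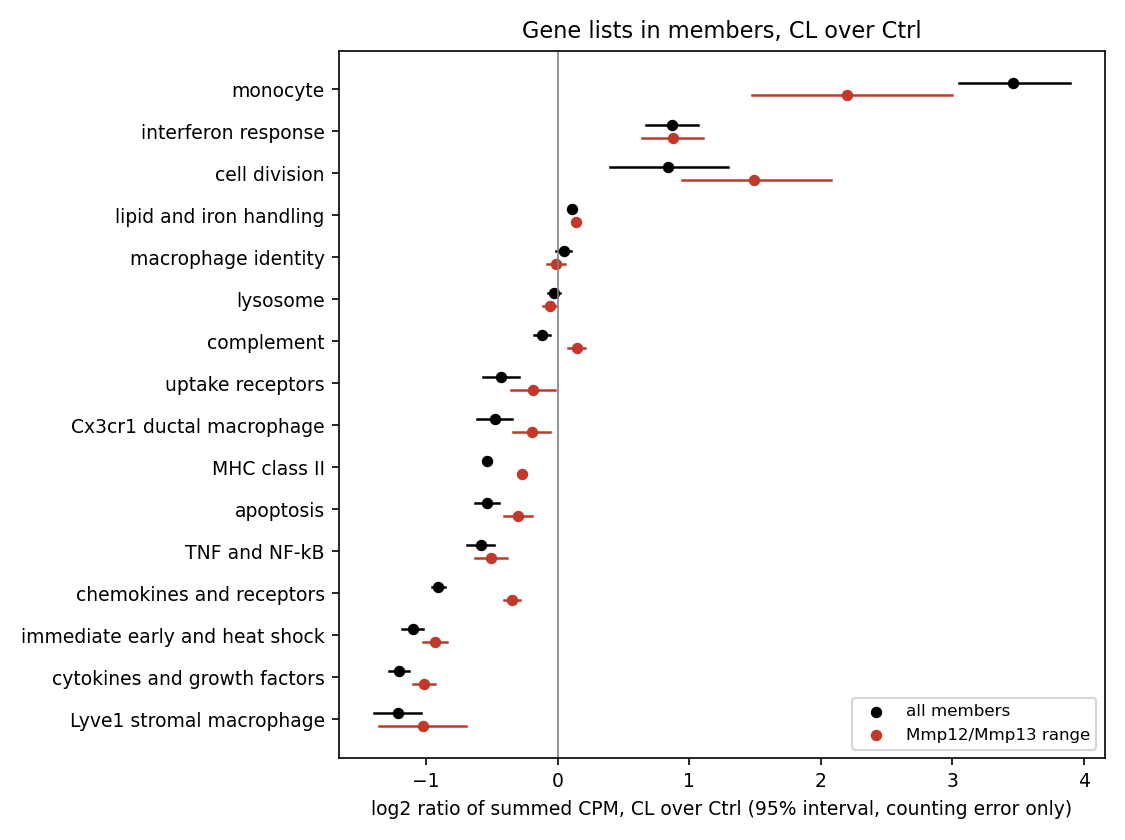
Log2 ratio of summed CPM, CL over Ctrl (x axis), for 16 gene lists (y axis) with 95% intervals for counting error, over all members (black) and over the Mmp12/Mmp13 range (red). Cytokine, immediate early and stromal lists lie left of 0 in both, interferon and monocyte lists lie right of 0 in both, and the complement list, which the C1q genes lead, changes side. In the red monocyte value 61 of 119 CL UMIs lie in 1 cell.

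Stromal-type genes were lower in CL. The Lyve1 stromal list stood at 1867 and 803 CPM, a log2 ratio of -1.22 (-1.40 to -1.04), and of -1.03 within the Mmp12/Mmp13 range. Of 4 compared genes 3 were at least 2-fold lower and 0 higher, against 3.55% lower and 10.9% higher of all compared genes. They were Mrc1 with 55 and 31 UMIs (-1.64, -2.33 to -0.98), Pf4 with 235 and 173 (-1.26, -1.55 to -0.97) and Selenop, a selenium carrier, with 201 and 175 (-1.01, -1.31 to -0.71). Within the range Mrc1 (-1.53) and Pf4 (-1.60) stayed past 2-fold and Selenop (-0.89) did not. The fourth, F13a1, had 29 and 45 UMIs and a ratio of -0.18, from different ranges, since 27 of the Ctrl UMIs lay in the Pf4 range and 44 of the CL UMIs in the monocyte gene range. Pf4 had 0 to 53 UMIs per Ctrl member with a median of 1, and 0 to 86 per CL member with a median of 0, so the higher sum in Ctrl came from more cells with Pf4 (24 of 40 against 14 of 56) and not from a higher maximum. Igf1 had 18 UMIs in 5 Ctrl members and 1 UMI in CL, a ratio of -4.98 with an interval from -10.4 to -2.32. The Cx3cr1 ductal list stood at 2620 and 1879 CPM, a ratio of -0.48 (-0.61 to -0.35), and 0 of its 7 compared genes reached 2-fold in either direction, beside 10.9% higher and 3.55% lower of all. Its ratio was -0.20 within the Mmp12/Mmp13 range.

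Monocyte genes were the list with the highest ratio among those with UMIs in many members. The list had 0 to 16 UMIs per Ctrl member with a median of 1 and was present in 21 of 40. It had 0 to 117 per CL member with a median of 2 and was present in 40 of 56. The summed levels were 158 and 1739 CPM, a log2 ratio of 3.46 (interval 3.05 to 3.90). The ratio was 2.20 within the Mmp12/Mmp13 range, and 1.30 (0.52 to 2.15) there without the deepest CL member. None of its 8 compared genes had 20 UMIs in both libraries, so they passed the minimum through CL and their count is not read. Plac8 had 15 and 621 UMIs (4.56, 3.82 to 5.40), Ly6c2 6 and 130 (3.62), of which all 6 in Ctrl lay in 1 cell, and Ms4a4c 11 and 71 (1.88). Chil3, a chitinase-like protein of monocytes, had 0 and 39 UMIs, at least 7.40-fold higher in CL. Plac8 was also an epithelial and free transcript here, with 376 and 543 CPM in empty droplets and a UMI in 22.3% and 27.7% of thinned keratin cells, against 19.4% and 42.9% of thinned members. Ly6c2 had 3.45 and 24.6 CPM in empty droplets, against 18.6 and 229 CPM in members.

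S100a4 had the highest ratio among genes that the naming rule took, with 11 UMIs in 2 Ctrl members and 612 in 21 CL members (4.98, interval 4.13 to 5.99). Most of these, 565 UMIs, lay in the monocyte gene range. Within the Mmp12/Mmp13 range it had 0 UMIs in Ctrl and 40 in 4 of 31 CL members. Wfdc17, a secreted protease inhibitor homologue of macrophages, was spread more widely, with 33 UMIs in 19 of 40 and 205 in 41 of 56 members (1.82, 1.29 to 2.40). Slc43a2, an amino acid transporter, was present in 9 and 35 members (1.82). Fabp5, a fatty acid carrier, had a ratio of 1.99 over all members and of -1.07 within the Mmp12/Mmp13 range (16 and 11 UMIs, interval -2.32 to 0.13), and 116 of its 224 CL UMIs lay in 1 cell. At the other end, Pmp22, a membrane protein first described in myelin, had 82 and 18 UMIs (-3.00), and Plau, urokinase, 169 and 78 (-1.93).

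Ccr7, the receptor that takes antigen-presenting cells towards lymph nodes, was 1 gene of the dendritic list that differed within the Mmp12/Mmp13 range. It had 2 UMIs in 2 Ctrl members and 56 in 11 CL members (3.99, interval 2.07 to 7.07), of which 2 and 53 lay in that range (4.20, 2.28 to 7.28). At most 13 UMIs were in 1 cell. Mgl2, a lectin of dendritic cells and macrophages, went the other way over all members with 42 and 20 UMIs (-1.88), while within the range it had 2 and 6 UMIs and a ratio of 1.06, whose interval includes 0.

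CL members had a higher summed level of interferon-response genes. The list stood at 871 and 1589 CPM, a log2 ratio of 0.87 (0.67 to 1.07), and had the same ratio of 0.87 within the Mmp12/Mmp13 range. Of 7 compared genes 3 were at least 2-fold higher and 0 lower, against 10.9% higher and 3.55% lower of all compared genes, with a median of 0.75 beside 0.24. Only 4 of the 7 had 20 UMIs in both libraries, and with the minimum on mean CPM 1 of 5, Gbp2, was at least 2-fold higher, beside 5.43% of all genes. Irf7, a transcription factor of the interferon response, had 1 UMI in Ctrl and 46 in 18 CL members (4.71, 2.16 to 10.0). Gbp2, an interferon-induced GTPase, had 5 UMIs in 5 Ctrl members and 208 in 34 CL members (4.56, 3.32 to 6.20). Empty droplets moved the same way, with Gbp2 at 36.0 and 285 CPM against 15.5 and 367 CPM in members, and with the whole list at 318 and 719 CPM. A Gbp2 UMI was found in 7.96% and 33.1% of thinned keratin cells and in 5.56% and 55.1% of thinned members. With the empty-droplet profile subtracted at the share set by keratin UMIs (4.02% of members' UMIs in Ctrl and 3.75% in CL), the log2 ratio of the interferon list was 0.86 and that of Gbp2 was 4.52. The rule limits these keratin UMIs in members, so the share is bound by the choice of cells. The part of free RNA in the difference was not tested. Within the Mmp12/Mmp13 range Gbp2 had 3 and 41 UMIs (3.24).

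Immediate early and heat shock genes, which respond within minutes to stress and to tissue dissociation, were lower in CL, with the list at 8936 and 4158 CPM (-1.10) and 10 of 15 compared genes at least 2-fold lower and 0 higher, against 10.9% higher and 3.55% lower of all compared genes. Their median was -1.08 beside 0.24. Egr1 had 53 and 17 UMIs (-2.45) and Hspa1b 185 and 63 (-2.37). The list stood at 19536 and 18208 CPM in empty droplets, above the members in both libraries. The ratio within the Mmp12/Mmp13 range was -0.93. Several cytokine and NF-kB genes above are induced by the same stimuli, and the part of dissociation in their difference was not tested.

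The lysosome list stood at 21627 and 21205 CPM, a log2 ratio of -0.03, with 0 of its 21 genes past 2-fold in either direction, against 10.9% higher and 3.55% lower of all compared genes. The uptake receptor list stood at 2422 and 1798 CPM, a ratio of -0.43 (-0.57 to -0.29) that was -0.19 within the Mmp12/Mmp13 range, with 1 of 10 compared genes at least 2-fold higher and 1 lower. The lipid and iron list stood at 55272 and 59678 CPM, a ratio of 0.11, with 2 of 12 compared genes at least 2-fold higher, 0 lower and a median of 0.44 beside 0.24 over all genes. It was led by the ferritin chains Fth1 (log2 ratio 0.11) and Ftl1 (0.05). In it Slc40a1, the iron exporter ferroportin, had 9 and 51 UMIs (1.69, 0.65 to 2.90). Among uptake receptors Fcgr4 had 53 UMIs in 20 of 40 and 163 in 45 of 56 members (0.81, 0.35 to 1.28), and its ratio was 0.91 within the Mmp12/Mmp13 range. Cd36, a scavenger receptor, had 361 and 377 UMIs (-0.75, and -0.38 within the range), and Axl, a receptor for dying cells, 93 and 96 (-0.77, and -0.39). Mertk, another, had 4 and 7 UMIs and could not be compared, and Marco had none.

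Of the receptors for colony stimulating factors, Csf1r had 156 and 216 UMIs (-0.34, interval -0.65 to -0.04) and Csf2ra 112 and 117 (-0.75, -1.14 to -0.36). Csf2rb, the shared beta chain of the GM-CSF, interleukin 3 and interleukin 5 receptors, had 47 UMIs in 21 of 40 and 168 in 44 of 56 members (1.02, 0.55 to 1.52), and 1.12 within the Mmp12/Mmp13 range. The chains of 1 receptor, Csf2ra and Csf2rb, thus lay on opposite sides of 0, and their intervals do not overlap.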

How the data were processed

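Single cell RNA sequencing libraries of sorted mammary cells were analysed, 1 from control mice and 1 from clodronate liposome treated mice, grouped by the treatment label. The authors deposited raw UMI counts per gene and barcode (32285 genes, 6794880 barcodes), unnormalised and with empty droplets. The submitters' processing notes name Cell Ranger 2.1.1 and mm10, whereas the matrix header names Cell Ranger 4, and the protocol names single cell 3' v2 chemistry. The deposited barcode lists (7217 for Ctrl, 10555 for CL) do not number the matrix columns, so the same number of barcodes with most UMIs was taken, holding 82.7% and 85.7% of all UMIs. Cells with at least 500 genes and at most 15% mitochondrial UMIs were retained.

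The rule of the report was then applied. The members, gene lists and ranges were chosen with earlier results of these data known. UMIs were summed over members and divided by their total to give CPM. Log2 ratios carry conditional exact binomial intervals, levels Poisson and shares Clopper-Pearson intervals, at 95%. A count of 0 was set to a floor of 3 UMIs per library (9.30 CPM in Ctrl, 5.29 CPM in CL). Genes with at least 20 UMIs in the library with more CPM were compared, and 2-fold was the limit for counting them. Barcodes of 100 to 300 UMIs gave the free RNA profile. Beside the list genes, the text draws on the 10 highest and 10 lowest ratios among genes with at least 50 UMIs in at least 5 members and at least 2 times the empty-droplet level, on the 15 genes highest over other cells and on the 10 most abundant genes. A few of these genes are not reported here, although they stay in the summed lists and counts. Mitochondrial, ribosomal, haemoglobin, sex-linked, Gm and Rik genes were left out by that rule, and 1 listed gene was not in the feature table. Doublets were kept, and Scrublet scores served as an alternative. Alternatives changed the C1q, keratin, Cd3, gene and mitochondrial limits, the UMI minimum, the scaling (TMM from edgeR 4.0.16 in R 4.3.3), the cells included and the free RNA correction. Counts of genes with near-identical copies (H2, Ly6c2, Mmp, Hspa1a and Hspa1b, Lyz2, Bcl2a1, Ccl3 and Ccl4) are uncertain in how reads were split. Gene positions are from GENCODE M21 (GRCm38), promoters from RefSeq (GRCm38.p6). The calculation of the ratios was tried on simulated data, and no value in this text comes from those data. Python 3.11.15, numpy 2.4.6, scipy 1.17.1 and scanpy 1.11.5 were used.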

Additional observations from a re-analysis of the deposited data

Results flagged for a closer look

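Some cells outside the rule carried C1q transcripts, and the library labelled CL held more of them. The keratin limit removed 12 retained CL cells with at least 10 C1q UMIs and 2 such Ctrl cells. These were 0.129% (interval 0.0664 to 0.224%) and 0.0318% (0.00385 to 0.115%) of retained cells, and the intervals overlap. The removed cells had medians of 84.0 C1q and 41 keratin UMIs in CL, and of 118.5 and 308 in Ctrl. Just under the C1q limit, with 5 to 9 UMIs, lay 14 CL cells and 2 Ctrl cells. These cells are not members and enter no main comparison between the members of both libraries. They do enter the alternatives that lower the C1q limit or lift the keratin limit, and the retained cells that members were set against. With 1 library per group the difference in these counts was not tested.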

How the results depend on the processing

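The log2 ratio of shares (-0.08) ran from -0.61 to 0.17 over 12 alternatives, all within its main interval. Without members with at least 10 monocyte-list UMIs, chosen after seeing the data, 106 genes were at least 2-fold higher (355 as reported), 52.0% of calls against 75.5%, and over the Mmp12/Mmp13 range alone, also chosen then, 176 were higher and 72 lower (115 as reported), 71.0% of calls. A minimum of 10 UMIs gave 746 and 233, and of 50 UMIs 118 and 53, and a minimum on mean CPM, chosen after seeing the data, 115 and 82 (58.4% of calls higher, median 0.09). TMM factors moved the share of higher calls to 68.3%. The median log2 ratio of compared genes was 0.24 as reported, 0.17 with TMM, 0.18 without the 20 most abundant genes and 0.07 without the monocyte-list members.

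In the order without monocyte-list members, Mmp12/Mmp13 range, the log2 ratio of MHC class II became -0.067 and -0.28 (-0.54 as reported), of cytokines -0.88 and -1.02 (-1.21), of the monocyte list 0.59 and 2.20, or 1.30 without the deepest CL member of the range (3.46), of complement 0.27 and 0.14 (-0.12) and of the 7 markers 0.26 and 0.10 (-0.16). With at least 20 C1q UMIs MHC class II was -0.39, cytokines -1.12 and complement 0.0049. The mean of each cell's CPM gave -0.44 for MHC class II and 2.95 for monocytes, TMM -0.62 for MHC class II and -1.29 for cytokines, the total without the 20 most abundant genes -0.60 for MHC class II, and leaving out the deepest member of each library -0.50. The Lyve1 list (-1.22) became -1.55 without the cells of highest Scrublet score and -1.03 in the Mmp12/Mmp13 range. At least 1 UMI put 42.5% of Ctrl and 19.6% of CL members on the stromal side and 60.7% of CL members on the ductal side, which thinning set at 27.8% (Ctrl) and 16.3% (CL).

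Of the named genes past 2-fold over all members, some turned. In the Mmp12/Mmp13 range Ccl2 turned to 1.47 (1 and 4 UMIs, -1.87 to 7.09), Fabp5 to -1.07 (16 and 11, -2.32 to 0.13) and Mgl2 to 1.06 (2 and 6), each interval including 0. Without monocyte-list members Fabp5 turned to -0.93. Genes under 2-fold, such as Cxcl2, Tnfrsf1a and the C1q genes, also changed sign in that range, with the values given above. The values without single cells (that CL member, and the highest cells for Ccl3, Ccl4 and Cxcl3) were also chosen after seeing the data. For the turned values of lists and genes the cells included changed, and the cause was not tested further. No ratio was taken where 1 library had 0 UMIs and the other at most 3. Of 608 values of the 62 named genes past 2-fold, 604 kept their sign, which says little because these genes were taken for their large ratios. Of 41 values of the 4 gene lists treated as main results, 17 moved and 0 changed sign. No paired analysis was possible because each group has 1 library, and no replicate could be left out. With 40 and 56 cells, share ratios under the width of the interval could not be seen.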

Other observations

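Division genes were low in members, with a highest value of 6 UMIs per cell in Ctrl. In CL 1 cell had 61 UMIs of the list, among them 17 of the 19 Ube2c UMIs. It was also the deepest member, with 33456 UMIs, 243 C1q UMIs and 62 Mmp12 and Mmp13 UMIs, and it had 61 monocyte-list UMIs. Haemoglobin genes had 716 UMIs in CL members, of which 715 lay in 1 cell, and 0 in Ctrl members.

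Ighm, the immunoglobulin M heavy chain, had 27 UMIs in Ctrl and 33 in CL members, present in 45.0% and 32.1% of them. Of the 6 genes of the B cell list 4 had 0 UMIs in Ctrl and 3 in CL.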
